A study of Rattus norvegicus with 102 samples.

Results

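The comparison concerned the dentate gyrus (DG) of aged male Fischer 344 rats that differed in spatial memory, and used 24 RNA-seq libraries of a series in which each of 34 rats gave 3 libraries, 1 for each hippocampal subfield. The members were chosen by label: all 12 DG libraries of aged-impaired (AI) rats were set against all 12 DG libraries of aged-unimpaired (AU) rats, with the identifier series of the rats (R9, or R1-R2) as a covariate. Both groups were 17 to 22 months old and had been trained in the water maze, and they were separated afterwards by a discrimination index from the probe trial, so that memory was observed in these animals and was not manipulated. The R9 series held 5 AI and 6 AU rats and the R1-R2 series 7 AI and 6 AU rats. What the series stand for is not given in the labels. The study tested its rats at sites in Arizona and Florida, with a different supplier for each. The labels do not give the site of a rat. DG libraries of 10 young rats of 5 to 6 months are given as a reference level. Each library came from 1 rat, and the same rats also gave a CA1 and a CA3 library.

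The DG is the first relay of the hippocampal circuit. Its granule cells receive the perforant path from the entorhinal cortex and send mossy fibers to hilar mossy cells and to CA3 pyramidal cells, and new granule cells are added in its subgranular zone through adult life. The region is known for sparse firing and for a part in keeping similar memories apart, and its perforant path input is known to decline in aged rats with poor spatial memory.

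The 24 libraries held from 4478984 to 13711224 reads assigned to genes, with a median of 10747594.5 in AI and 8651197.5 in AU. The label DG was checked against markers of granule cells, CA1 pyramidal cells, and CA3 and CA2 pyramidal cells, each scored as the mean log2 difference of its markers from their mean over all libraries of the series. In 19 libraries the granule cell score was the highest of the 3, and in 5 it was not: AI replicates 8, 10 and 11 and AU replicates 5 and 10. Of these, AI replicate 8 was farthest from the rest, with a granule cell score of -1.09 and 181 normalized counts of *Prox1*, the transcription factor that specifies granule cells, against 637 to 1607 in the 19 libraries. Its *C1ql2*, a synaptic organizer that granule cells secrete, was at 90.4 normalized counts against 621 to 2697. In AU replicate 10 the CA1 marker *Wfs1* was at 5863 normalized counts, against 292 to 6394 with a median of 874 in the 19 libraries. In AI replicates 10 and 11 and AU replicate 5 the granule cell score was close to the highest score. It was 0.26, 0.43 and 0.46, against 0.27, 0.49 and 0.51. Results are therefore given with all 24 libraries, and values without the 5 libraries are added where a printed fold change or count moved by more than about 1.5 times. Of the young DG libraries, replicate 10 also had a granule cell score (-0.39) below its CA3 and CA2 score (0.40), and the young ranges include it. In bulk tissue, fewer cells of a type and less RNA per cell cannot be told apart.

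**Figure D1:**
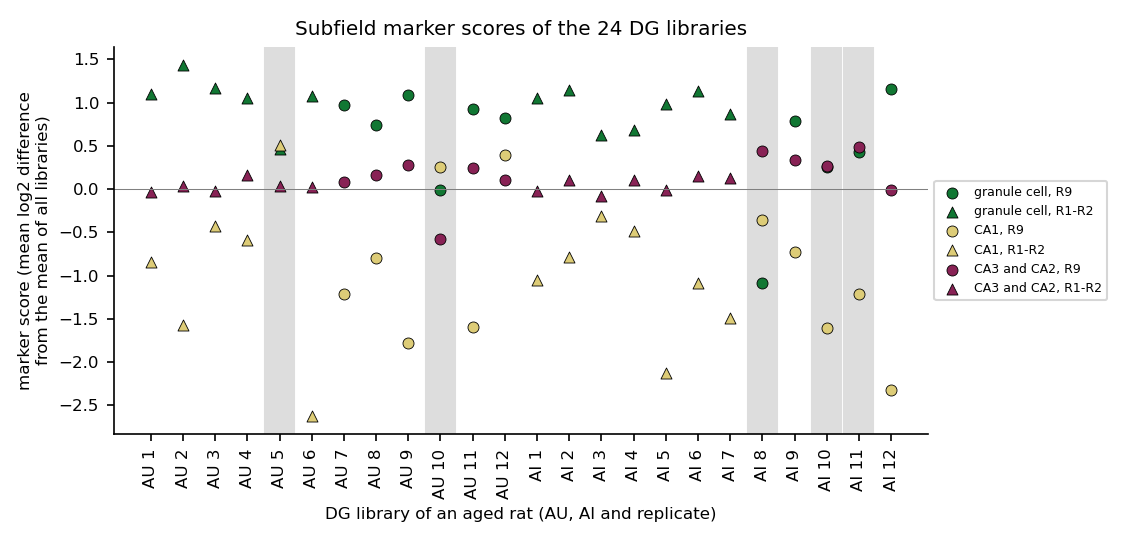
Scores of granule cell, CA1, and CA3 and CA2 markers (y axis, mean log2 difference from the mean of all libraries of the series) in each of the 24 DG libraries (x axis), with circles for R9 and triangles for R1-R2 and grey bands behind the 5 libraries in which the granule cell score was not the highest. The granule cell score of AI replicate 8 lies at -1.09, and the AU median lies at 1.01 against 0.83 in AI.

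Of 16182 genes tested in the DG, 0 (0%) differed between AI and AU at an adjusted p under 0.05 in limma, and the smallest adjusted p was 0.999. At an unadjusted p under 0.05, 248 genes (1.53% of those tested) had a higher level in AI and 209 (1.29%) a lower one, together 2.82%, and over all genes tested 50.9% of the fold changes lay above 0. At that level there were 322 of 16121 genes without the 5 libraries. edgeR and DESeq2 on the recovered reads also called 0 genes, with 463 and 528 at an unadjusted p under 0.05. No gene had AI and AU values without overlap, in either direction. The result does not show that the groups were alike, but the intervals limit how far they differed: the median half-width of the 95% interval of a log2 fold change was 0.30, and for 93.7% of the genes the whole interval lay within 1 of zero on the log2 scale, which is a doubling or halving of the level. For 65.8% it lay within 0.5. Precision followed abundance, since 62.7% of the 2159 genes with a mean of 5 to 20 normalized counts had an interval within 1, against 99.8% of the 2290 genes with a mean of 1000 or more.

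The 10 genes with the smallest p and a higher level in AI are described first, and none passed the adjusted threshold. *Cdc20*, an activator of the anaphase-promoting complex, ranged from 7.81 to 21.9 normalized counts in AI with a median of 13.4, and from 2.03 to 16.5 in AU with a median of 5.16. All 12 AI rats lay above the AU median, although the ranges overlapped. The log2 fold change was 1.11 (SE 0.26, 95% interval 0.58 to 1.64, unadjusted p = 0.000212), and the young rats ranged from 4.17 to 18.6 with a median of 10.0. *Gpr143*, a G protein-coupled receptor best known from the melanosomes of pigment cells, had a median of 13.4 normalized counts in AI (6.66 to 21.4) and 6.17 in AU (3.89 to 14.03). Again all 12 AI rats exceeded the AU median, with a log2 fold change of 0.88 (SE 0.22, unadjusted p = 0.000372), and young rats had a median of 8.39 (1.995 to 21.0). Both genes are of low abundance, near the filter of 5 normalized counts.

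*Gjd2* encodes connexin 36, which forms the electrical synapses of interneurons. Its values ran from 90.8 to 213 normalized counts in AI (median 139) and from 34.9 to 140 in AU (median 90.4), with all 12 AI rats above the AU median. The log2 fold change was 0.61 (SE 0.17, 95% interval 0.27 to 0.96, unadjusted p = 0.00118) and was 0.45 without the 5 libraries that stood apart. *Epb41l4a*, a membrane-cytoskeleton protein with a FERM domain, had a median of 142 normalized counts in AI (79.4 to 222) and 110 in AU (57.4 to 143), with a log2 fold change of 0.59 (SE 0.15, unadjusted p = 0.000674) that was 0.42 without the 5 libraries. In young rats it ranged from 104 to 203 with a median of 128. *Rbm11*, an RNA-binding regulator of splicing, lay above the AU median of 78.1 in all 12 AI rats (88.5 to 147), with a log2 fold change of 0.43 (unadjusted p = 0.00164). *Tgfbi*, a secreted matrix protein, had medians of 103 in AI and 59.7 in AU and a log2 fold change of 0.61 (unadjusted p = 0.00145).

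The other 4 genes of this group were scarce. *Krt8*, a keratin of simple epithelia, reached 82.0 normalized counts in AI replicate 8, against a median of 16.02 in AI and 8.19 in AU (log2 fold change 1.24). *Map3k19*, a protein kinase, and *Ttc25*, which helps dock dynein arms in motile cilia, were also highest in AI replicate 8, each at 35.4 normalized counts. Their log2 fold changes were 1.48 and 0.94 with all libraries, and 1.07 and 0.92 without the 5 that stood apart. *Scara5*, a scavenger receptor that takes up ferritin, had a median of 19.01 in AI (4.88 to 50.4) and 7.30 in AU (0 to 22.2), a log2 fold change of 1.48 that was 1.42 without the 5 libraries. Of the 12 AI rats, 11 lay above the AU median of *Map3k19* and 10 above that of *Scara5*.

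Among the 10 genes with the smallest p and a lower level in AI, several differences were smaller and several genes more abundant. *Ddo*, which encodes D-aspartate oxidase and so degrades an agonist of NMDA receptors, ranged from 120 to 206 normalized counts in AI (median 169) and from 148 to 275 in AU (median 203). Of the AI rats, 11 lay below the AU median, and the log2 fold change was -0.36 (SE 0.10, 95% interval -0.57 to -0.15, unadjusted p = 0.00183). The young median was 183 (151 to 255), between the aged groups. *Fst*, which encodes follistatin, a secreted inhibitor of activin, had a median of 15.6 in AI (3.73 to 25.0) and 21.7 in AU (12.5 to 35.5), and a log2 fold change of -0.91 (SE 0.27, unadjusted p = 0.00213). Young rats had a median of 20.8 (10.2 to 28.5). *Ccdc13* had medians of 118 in AI, 169 in AU and 165 in young rats (67.8 to 224), with a log2 fold change of -0.56 (unadjusted p = 0.00297).

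*Dapk1*, a death-associated kinase regulated by calmodulin, ranged from 752 to 1875 normalized counts in AI and from 1437 to 2367 in AU. The lowest value belonged to AI replicate 8, and the log2 fold change of -0.32 (SE 0.10, unadjusted p = 0.00302) was -0.23 without the 5 libraries. *Lrrtm4*, a postsynaptic adhesion protein of excitatory synapses, had medians of 304 in AI and 362 in AU, was also lowest in AI replicate 8 at 108, and had a log2 fold change of -0.43 with all libraries and -0.29 without the 5. *Dlk2*, a relative of the Notch ligands, moved from -0.45 to -0.27, where its unadjusted p was 0.0681. *Zbtb2* (-0.31), *AC097183.1* (-0.62), *Fbn1*, the microfibril protein fibrillin (-0.57), and *Tmprss6*, a membrane serine protease (-0.73), completed the group, with unadjusted p from 0.00392 to 0.00495.

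**Figure D2:**
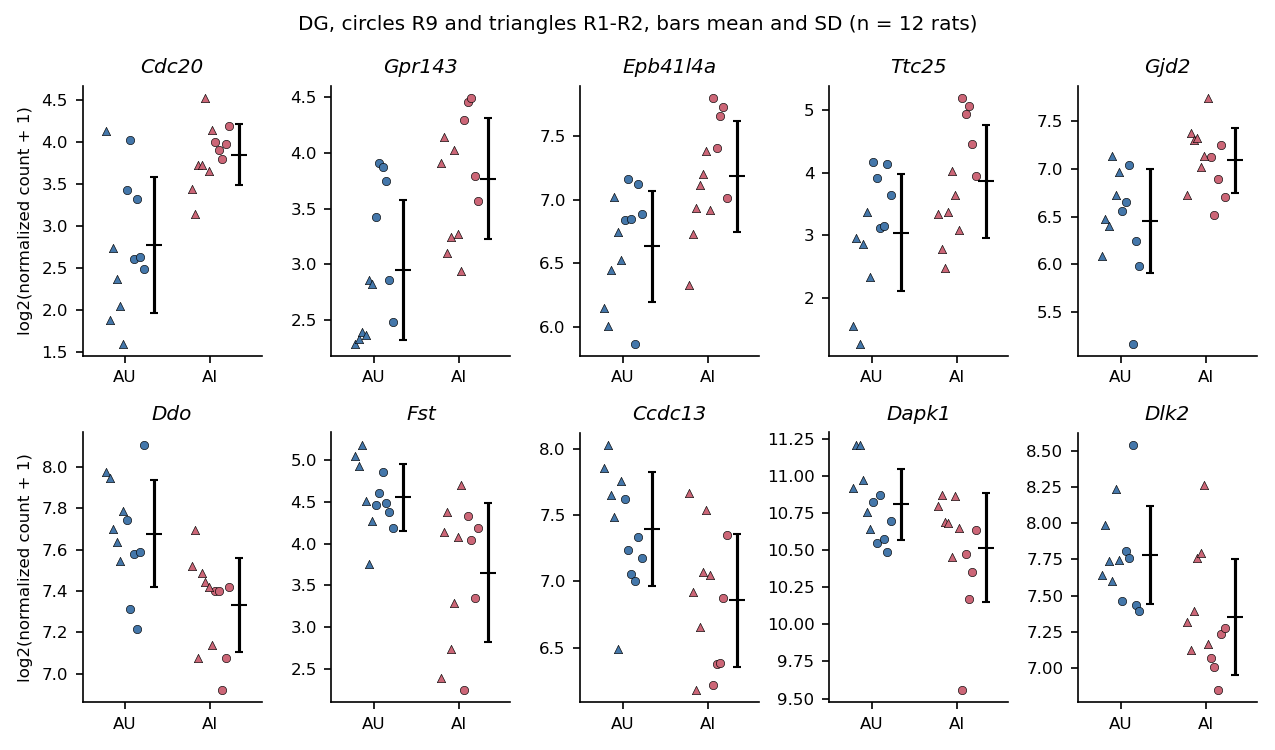
Values of each aged rat (y axis, log2 of the normalized count plus 1) in AU and AI for the 5 genes with the smallest p in each direction, with circles for R9, triangles for R1-R2, and bars for the mean and SD of 12 rats. The AI and AU values overlap in every panel, although all 12 AI rats exceed the AU median of *Cdc20*, *Gpr143* and *Gjd2*.

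The study lists 30 genes for impairment in the DG, 17 as higher in AI and 13 as lower. It picked them from Illumina libraries and kept those that passed a one-sided test in that direction in the Ion Proton libraries, which are the ones analysed here. Their direction here is therefore not independent evidence. Here 27 of them passed the filter on low values, and *Mrap*, *Kel* and *Mael* did not. All 27 had the listed sign, as the choice of the list leads one to find, 14 were at an unadjusted p under 0.05, and 0 passed the adjusted threshold. Over all genes tested 2.82% were at an unadjusted p under 0.05. Without the 5 libraries that stood apart 8 were at an unadjusted p under 0.05. The median log2 fold change over the list was 0.08, against 0.16 with all libraries. The list mixes genes listed as higher and as lower, so this median does not measure the size of its effects. The smallest p were those of *Gjd2*, *Rbm11* and *Dapk1* above, followed by *Pvrl3*, which encodes nectin-3, an adhesion protein of synaptic junctions (medians 234 in AI and 199 in AU, log2 fold change 0.44, unadjusted p = 0.00765). Its log2 fold change was 0.22 (unadjusted p = 0.0951) without the 5 libraries. *Ago4*, a member of the RNA interference machinery, had medians of 62.8 and 76.8 (log2 fold change -0.32, unadjusted p = 0.00974). *Mtss1*, a membrane-bending protein of dendritic spines, had medians of 816 and 742 and a log2 fold change of 0.21, with 11 of 12 AI rats above the AU median. *Kcnq5*, a subunit of the M-type potassium channel, had medians of 1280 and 970 and a log2 fold change of 0.40 that was 0.21 without the 5 libraries. *Bcl6*, a transcriptional repressor, had medians of 411 and 507 and a log2 fold change of -0.23.

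Several listed genes rested on single libraries or on 1 series. The interferon-induced *Oas1a* ranged from 2.19 to 19.7 normalized counts in AI and from 6.25 to 81.7 in AU, and the highest value belonged to AU replicate 1. Its log2 fold change was -0.41 in all 24 libraries, -0.99 in R1-R2 and 0.28 in R9, and it was -0.18 without AU replicate 1 and -0.87 without the 5 libraries. *Usp18*, which restrains interferon signalling, was also highest in AU replicate 1, at 124.5 against a median of 29.0 in AU, and its log2 fold change was -0.61 in R1-R2, 0.0016 in R9, and -0.14 without AU replicate 1. *Prl*, the pituitary hormone prolactin, had a median of 0 in AU and of 1.25 in AI, and reached 63.4 in AI replicate 5. Its log2 fold change was 2.75 in R1-R2 and -0.31 in R9.

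Genes that mark the principal cells of the DG were examined next. Of 17 granule cell markers tested, 15 had a lower and 2 a higher level in AI, with a median log2 fold change of -0.32 against 0.0033 over all genes tested. Only *Maml2* (-0.32, unadjusted p = 0.0423) was at an unadjusted p under 0.05. *Prox1* ranged from 181 to 1240 normalized counts in AI (median 872) and from 443 to 1607 in AU (median 1079), with a log2 fold change of -0.42 (95% interval -0.89 to 0.06) that was -0.28 without the 5 libraries. *C1ql2* had medians of 1069 and 1175. Without the 5 libraries that stood apart the median over the list was -0.16, and it was -0.44 in R9, which held 4 of the 5 libraries, and -0.18 in R1-R2. The 13 tested markers of CA3 and CA2 had a median of 0.14, which was 0.05 without the 5 libraries, and the 9 CA1 markers had -0.22 and 0.04. The part of tissue composition in these values was not tested. The 5 libraries were chosen by the scores of these granule cell, CA1, and CA3 and CA2 markers. The values of these lists without them are therefore no separate check. For 11 markers of mossy and hilar cells the median was 0.07, or -0.09 without the 5 libraries, and 0 genes were at an unadjusted p under 0.05. For 19 markers of interneurons the same count was 0 and the median 0.08. Without the 5 libraries the count was 1 and the median 0.13.

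Adult neurogenesis was described by 17 tested genes, of which 0 passed the adjusted threshold. *Dcx*, the microtubule protein of immature granule cells, ranged from 137 to 438 normalized counts in AI (median 317), from 129 to 412 in AU (median 255) and from 185 to 617 in young rats (median 350). The ranges of the aged groups lay almost on each other, and the log2 fold change was 0.17 (95% interval -0.21 to 0.55). Of the 17 genes tested, 12 had a higher level in AI and the median was 0.15. *Tbr1*, a transcription factor of newborn glutamatergic neurons and of neighbouring cortex, was the single one at an unadjusted p under 0.05. Its medians were 200 in AI and 259 in AU, with its highest value of 782 in AU replicate 10. Its log2 fold change was -0.50, or -0.31 without the 5 libraries, where 0 genes of the list were at that level.

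Of 26 activity-regulated genes, 7 had a higher and 19 a lower level in AI, with a median log2 fold change of -0.08, or -0.04 without the 5 libraries. *Arc*, which acts at synapses after strong activity, had medians of 647 and 685 normalized counts and a log2 fold change of -0.27 (95% interval -0.66 to 0.12). *Nr4a3*, a nuclear receptor of the same early response, had medians of 1232 and 1082 and was the single member at an unadjusted p under 0.05 (log2 fold change 0.26, unadjusted p = 0.0283). Without the 5 libraries 0 members were at that level. Tissue was taken 2 weeks after testing.

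The intervals of receptor and channel genes are given next to those of all genes tested, of which 65.8% had an interval within 0.5 of zero. Of 22 glutamate receptor genes, 16 had an interval within 0.5 of zero and the median was -0.04. *Grm2*, the presynaptic group II receptor of mossy fibers, was the exception at an unadjusted p under 0.05: its median was 675 in AI and 739 in AU, but AI replicate 8 was at 60.6, and the log2 fold change of -0.63 was -0.12 without the 5 libraries. Without the 5 libraries 0 glutamate receptor genes were at that level. The 14 GABA receptor genes had a median of 0.0063, or -0.0066 without the 5 libraries, with 10 intervals within 0.5. Of 44 calcium handling genes, 35 had an interval within 0.5, and the median was -0.03, or -0.05 without the 5 libraries. *Cacna1d*, an L-type calcium channel subunit, had a log2 fold change of -0.29 (unadjusted p = 0.0325). At an unadjusted p under 0.05, 0 calcium handling genes were higher and 1 lower. Without the 5 libraries 2 were higher and 0 lower. Of 54 potassium and HCN channel genes, 31 had an interval within 0.5. At an unadjusted p under 0.05, 3 were higher and 1 lower, among them *Kcnq5* and the inward rectifier *Kcnj4* (-0.39, and -0.15 without the 5 libraries). The counts were 2 and 0 without the 5 libraries. Of 39 gap junction and adhesion genes, 3 were higher at that level, *Gjd2*, *Pvrl3* and the protocadherin *Pcdh18*, and the median was 0.03. That count was 1 without the 5 libraries. Over all genes tested 1.53% were higher at that level.

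Immune genes had values in both directions. Of 31 genes of microglia, complement and antigen presentation, 26 had a higher level in AI, against 50.9% of all genes tested, and the median was 0.14. The 3 at an unadjusted p under 0.05 all belong to MHC class II presentation, against 1.53% of all genes that were higher at that level, and without the 5 libraries the count was 0. *Cd74*, the invariant chain, ranged from 103 to 835 normalized counts in AI (median 419), from 110 to 671 in AU (median 206) and from 19.5 to 175 in young rats (median 93.4). Both aged groups thus had medians above every young rat, and the AI and AU ranges overlapped over most of their length. The log2 fold change of AI against AU was 0.68 (95% interval 0.14 to 1.22, unadjusted p = 0.0156), and 0.54 without the 5 libraries, where the unadjusted p was 0.118. *RT1-Da* and *RT1-Ba* had log2 fold changes of 0.76 and 0.66, which were 0.51 and 0.54 without the 5 libraries. All 3 were highest in AI replicate 8 among AI rats and in AU replicate 11 among AU rats. Of 32 interferon-stimulated genes, 22 had a lower level in AI, with a median of -0.06 in both series together, 0.08 in R9 and -0.23 in R1-R2. The median was -0.17 without the 5 libraries. *Irf9*, which binds interferon response elements with STAT proteins, had medians of 191 in AI and 233 in AU, with 11 of 12 AI rats below the AU median (log2 fold change -0.38, unadjusted p = 0.00971), and was highest, at 502, in AU replicate 1.

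Glial and neighbouring tissues were then compared. All 16 oligodendrocyte and myelin markers had a higher level in AI, against 50.9% of all genes tested, with a median log2 fold change of 0.18 and 0 at an unadjusted p under 0.05. The summed level ran from 39988 to 174203 normalized counts in AI, highest in AI replicate 8, and from 42382 to 127310 in AU, highest in AU replicate 10. The median was 0.43 in R9, -0.05 in R1-R2 and 0.04 without the 5 libraries. The 16 astrocyte markers had a median of 0.05, or 0.10 without the 5 libraries, with *Slc14a1* (0.16) and the intermediate filament *Vim* (0.40) at an unadjusted p under 0.05, and the 10 markers of oligodendrocyte precursors 0.13, with *Olig2* (0.25). Over all genes tested 1.53% were higher at that level. Without the 5 libraries 1 astrocyte marker was.

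All 14 tested markers of choroid plexus and ependyma had a higher level in AI, against 50.9% of all genes tested. The median log2 fold change of the list was 0.46, and it was 0.48 without the 5 libraries, 0.65 in R9 and 0.49 in R1-R2. The summed level of the list ran from 660 to 2348 normalized counts in AI and from 608 to 2188 in AU, so the groups overlapped almost entirely. *Folr1*, the folate receptor of choroid plexus epithelium, ranged from 0 to 44.7 in AI (median 8.84) and from 0 to 16.4 in AU (median 2.25), with a log2 fold change of 1.25 (SE 0.39, unadjusted p = 0.00351). Only 7 of 12 AI rats were above the AU median. *Rsph1*, a radial spoke protein of motile cilia, had medians of 43.5 and 27.8 and *Tmem212* of 0.76 and 0, both at an unadjusted p under 0.05. *Ttr*, the transthyretin that choroid plexus secretes, ran from 3.90 to 757 in AI and from 0 to 652 in AU. Of 5 tested blood and pituitary transcripts, 3 were at an unadjusted p under 0.05 with a higher level in AI, *Alas2* of erythroid heme synthesis, *Prl* and *Pomc*, and without the 5 libraries 1 was. Over all genes tested 1.53% were higher at that level. *Pomc* had a log2 fold change of 1.98 in R1-R2 and -0.56 in R9. Among 20 vascular, pericyte and meningeal markers 18 had a higher level in AI (median 0.19), and *Lum*, a matrix proteoglycan of meningeal fibroblasts, was the single one at an unadjusted p under 0.05 (0.70, and 0.46 without the 5 libraries). The part of these tissues in the values of other genes was not tested.

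The remaining lists had medians from -0.02 to 0.13. The 14 thalamic and neighbouring neuron markers had 0.13, with log2 fold changes from -1.11 to 0.57. At an unadjusted p under 0.05, 0 of them were higher and 2 lower, against 1.53% and 1.29% of all genes tested. Without the 5 libraries 2 were higher and 0 lower. The 16 glucocorticoid-responsive genes had a median of -0.02, and the 22 heat shock genes 0.08, which was 0.03 without the 5 libraries. Of 48 nuclear genes of the respiratory chain, 44 had a higher level in AI, against 50.9% of all genes tested. The median over the list was 0.09, with log2 fold changes from -0.07 to 0.32, and 42 had an interval within 0.5 of zero. *Ndufa1*, a subunit of complex I, was the single one at an unadjusted p under 0.05.

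**Figure D3:**
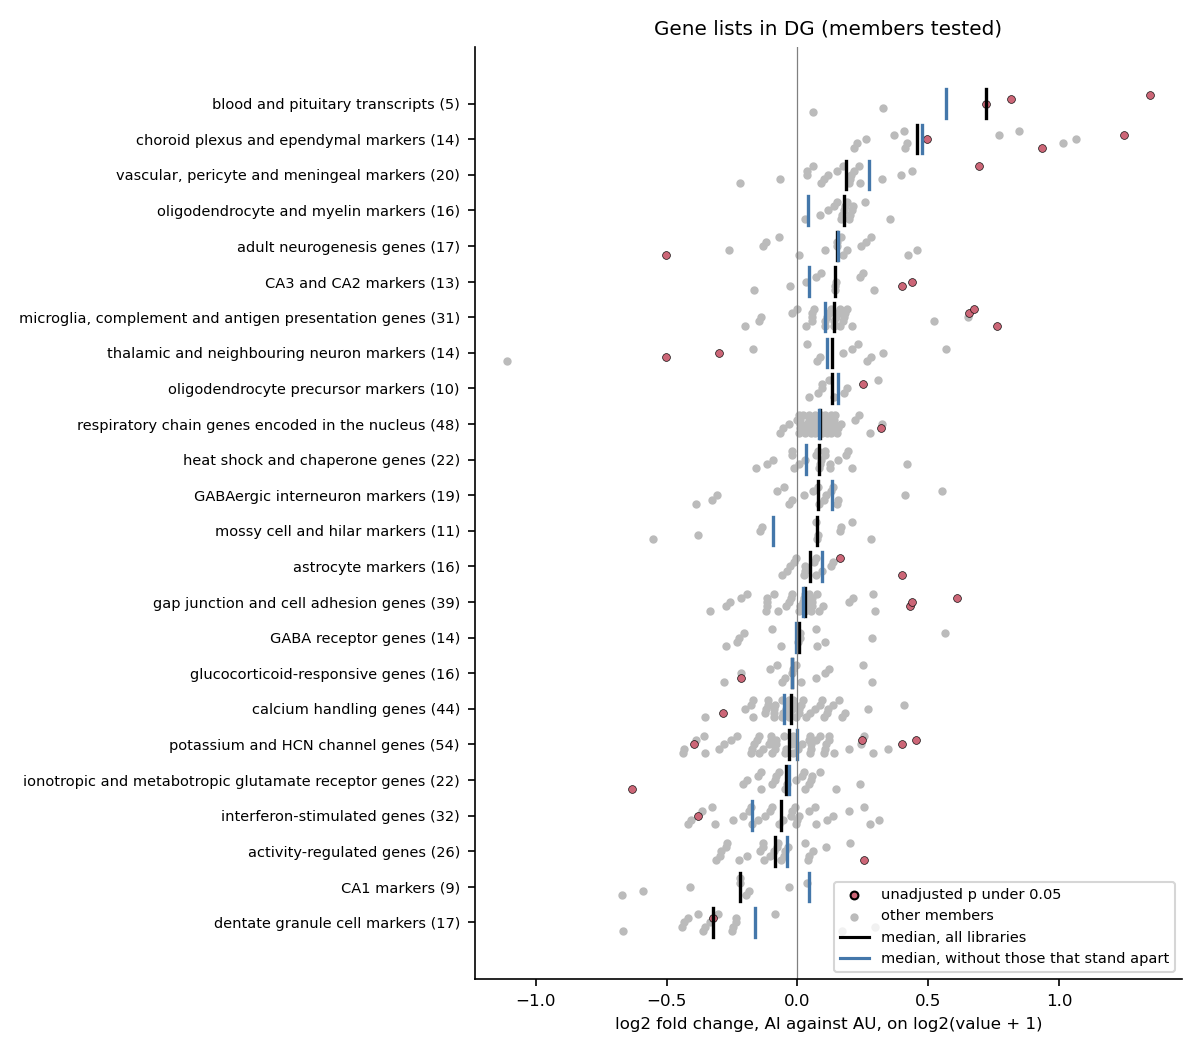
Log2 fold changes of AI against AU in the DG (x axis) for the tested members of 24 gene lists (y axis, number tested in brackets), with red points for members at an unadjusted p under 0.05, black bars for list medians with all 24 libraries and blue bars for medians without the 5 libraries that stood apart. The median of the granule cell markers lies at -0.32 with all libraries and at -0.16 without the 5, which were chosen by a score of these markers. That of the choroid plexus and ependymal markers lies at 0.46 and 0.48.

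The comparison was then made in each identifier series, which share no rats. In R9, 593 genes (3.66%) were at an unadjusted p under 0.05, and in R1-R2, 206 (1.27%). Across genes the log2 fold changes of the series were almost unrelated (Pearson r 0.02, Spearman rho 0.004 over 16182 genes, which are not independent replicates), and 48.5% of the genes had the same sign in both. At an unadjusted p under 0.05 in both series, 13 of 16182 genes had the same sign and 4 opposite signs. The number that chance alone would give was not worked out. Of the 13, 10 had a higher level in AI: *Cdc20*, *Gpr143*, *Epb41l4a*, *Gjd2*, *Scara5*, *Tgfbi* and *Krt8* from the genes above, and *Prc1*, a microtubule bundler of the mitotic spindle, *Crispld1* and *Efcab1*. *Fst*, *Fbn1* and *Lrrtm4* had a lower one. *Scara5* had log2 fold changes of 1.504 in R9 and 1.46 in R1-R2, and *Fst* -0.87 and -0.95. The 4 with opposite signs were *P2rx6*, *Fam161a*, *LOC102552640* and *Adcyap1*, the neuropeptide PACAP (-0.80 in R9 and 0.51 in R1-R2). These names were chosen after the values were seen. The genes above came from the fit of both series together, so their return here is not separate evidence. The difference between the series was itself tested as an interaction, in which limma called 0 genes and 309 (1.91%) were at an unadjusted p under 0.05. Of the 5 AI libraries of R9, 3 were among those that stood apart, against 0 of 7 in R1-R2. The R9 values thus rest on few AI libraries in which the granule cell score was the highest.

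**Figure D4:**
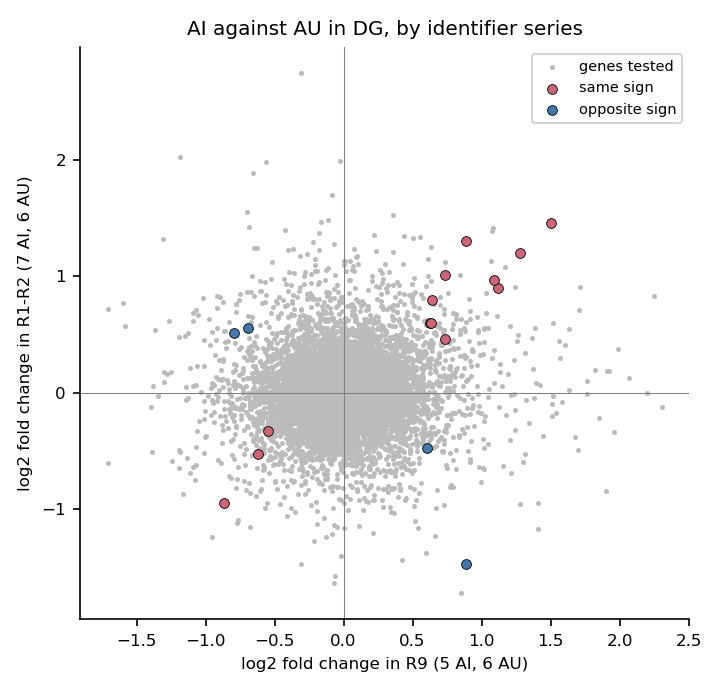
Log2 fold change of AI against AU in the DG for each tested gene in R9 (x axis, 5 AI and 6 AU rats) and in R1-R2 (y axis, 7 AI and 6 AU rats), with red points for the 13 genes at an unadjusted p under 0.05 in both series with the same sign and blue points for the 4 with opposite signs. The cloud has no slope, with a Pearson r of 0.02.

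The DG value of each rat was set against the CA1 or CA3 value of the same rat. This asked whether impairment went with different levels in the DG than in its neighbours. By the marker scores, the label was not the highest in CA1 libraries AU 12 (CA1 score -1.50) and AI 10. The same held in CA3 libraries AU 7 to 11 and AI 9 to 12, all of R9. In CA3 AI replicate 12 the granule cell score was 0.81, against -0.15 for CA3 and CA2. No fit left these libraries out, and their part in the values below was not tested. In limma 0 genes differed in the size of the AI against AU effect between DG and CA1 at an adjusted p under 0.05, and 645 of 16312 (3.95%) were at an unadjusted p under 0.05. Between DG and CA3 the count was 0, with 455 of 16329 (2.79%). In AI against AU within CA1 and within CA3 limma also called 0 genes, and 2.62% and 1.84% were at an unadjusted p under 0.05. The comparisons share their rats, so they are not independent of each other.

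Against CA1, the genes with the smallest p had effects of opposite sign in DG and CA1, larger in CA1 except for *Tpt1*. *Ipcef1* had log2 fold changes of -0.29 in DG and 0.81 in CA1, *Necab3* -0.33 and 0.85, and *Zmat4* -0.47 and 0.71. In the other direction *Tpt1* had 0.41 in DG and -0.39 in CA1, *Tnnt1* 0.57 and -1.52, and *Rerg* 0.34 and -0.82. Without the 5 libraries the DG values were -0.06 for *Necab3*, -0.16 for *Zmat4*, 0.19 for *Tnnt1* and -0.00031 for *Rerg*. Against CA3, *Epb41l4a* had log2 fold changes of 0.59 in DG and -0.21 in CA3, *Krt8* 1.24 and -0.75, and *Map3k19* 1.48 and -0.92. *Helz* had -0.23, or -0.15 without the 5 libraries, and 0.22, *AC097183.1* -0.62 and 0.51, and *Grin2b*, an NMDA receptor subunit, -0.15 and 0.34. Connexin 36, *Gjd2*, had 0.61 in DG, -0.46 in CA1 and 0.27 in CA3, and its DG minus CA1 difference was 1.07 (limma, unadjusted p = 0.000965, adjusted p = 0.995).

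**Figure D5:**
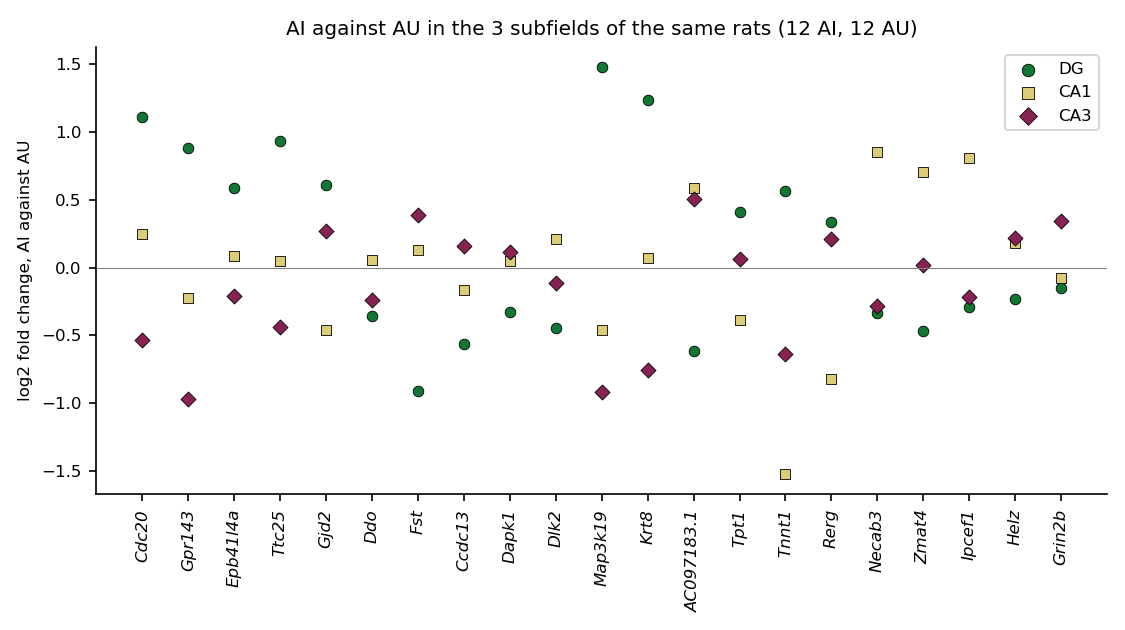
Log2 fold change of AI against AU (y axis) in DG, CA1 and CA3 of the same rats for the 5 genes with the smallest p in each direction in DG and for the genes with the smallest p in the comparisons of DG with CA1 and CA3. For *Tnnt1* the values are 0.57 in DG, -1.52 in CA1 and -0.64 in CA3.

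The lists that the study gives for impairment in CA1 and CA3 were picked in the same way from CA1 and CA3 libraries of these rats. Of its CA1 list, 64 tested genes had a higher and 38 a lower level in AI in the DG, 6 and 5 of them at an unadjusted p under 0.05, and the median log2 fold change was 0.07, which was 0.0034 without the 5 libraries. The counts at that level were 4 and 0 without them. The CA1 list also mixes genes listed as higher and as lower, so its median does not measure the size of its effects. The sign listed for CA1 was seen in the DG for 23 of these genes and the opposite sign for 79. Of those at an unadjusted p under 0.05, 1 had the listed sign and 10 the opposite one. Over all genes tested 1.53% were higher and 1.29% lower at that level. The signs were not counted without the 5 libraries. Of 7 tested genes of its CA3 list, 3 had the listed sign and 1, *Prl*, was at an unadjusted p under 0.05, or 0 without the 5 libraries.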

How the data were processed

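Poly(A) RNA of DG, CA1 and CA3 was sequenced on Ion Proton. The authors aligned reads to the rn5 rat genome with TopHat2 and Bowtie2, counted them per gene with featureCounts 1.4.4 and deposited the signal as DESeq2 1.10.1 normalized counts, 1 column per library. Every value divided by its library's smallest step was a whole number (100% within 0.05), so reads were recovered for the count tests. The main test was limma 3.58.1 (R 4.3.3) on log2(normalized count + 1), with a variance trend, on genes with a mean of at least 5 over the 24 libraries, with identifier series as covariate and Benjamini-Hochberg adjustment, two-sided. edgeR 4.0.16 and DESeq2 1.42.0 were run on the recovered reads as alternatives. The added 1 draws the fold changes of scarce genes towards 0, but the count models did not always give larger ones. *Cdc20* had a log2 fold change of 1.11 on this scale, 0.93 in edgeR and 0.94 in DESeq2. Differences between subfields were taken within rats, which pairs the libraries by animal. AI and AU rats share no pairing. Scripts were tested on simulated data.

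Genes were named by rule: the 10 with the smallest p in each direction, the study's DG list, list members at an unadjusted p under 0.01 or with the smallest p of their list, and the 3 with the smallest p in each direction against CA1 and CA3. The members and lists were chosen with earlier results of these data known. Gene symbols are those of the table or the study's supplement. The rn5 genome and annotation were not used here, so no coordinates are given.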

Additional observations from a re-analysis of the deposited data

Results flagged for a closer look

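*Epb41l4a* in the DG of young rats, which served only as a reference level, had a highest value of 203 normalized counts in 1 of 10 rats, far from the other 9 by Dixon's criterion. That value belonged to young replicate 10, whose granule cell score (-0.39) lay below its CA3 and CA2 score (0.40). Of the 6 genes given with young values and examined this way, 1 met it, and chance alone meets it in about 1 of 20 groups.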

How the results depend on the processing

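The count of 0 genes at an adjusted p under 0.05 held in the DG under every alternative run, among them other pseudocounts and filters, TMM rescaling, edgeR, DESeq2, array weights, the granule cell score as a covariate, each series alone and leaving out each rat. The smallest adjusted p was 0.176, without AU replicate 1, and DESeq2 gave 0.214. The count at an unadjusted p under 0.05, 457 in the report, was 287 without the covariate, 753 without the filter on low values (22703 genes tested), 783 with array weights and 206 in R1-R2 alone, and leaving out 1 rat gave 321 to 609. Without the 5 libraries that stood apart it was 322. The cause of these shifts was not tested. More genes entered the unfiltered fit. Fewer rats entered each single-series fit, and R9 alone gave 593 genes. The 13 genes with the same sign in both series were 7 with a mean of at least 20 and 0 at an unadjusted p under 0.01 in both. The differences of DG from CA1 and CA3 stayed at 0 called genes, also with no replicate block, that is without the pairing by rat, where 641 and 463 genes were at an unadjusted p under 0.05 against 645 and 455. Of 54 named genes tested, 5 had a reversed sign under 1 alternative each: *Prl* (-0.31), *Oas1a* (0.28) and *Usp18* (0.0016) in R9 alone, *Tnnt1* (-0.066) in R1-R2 alone, and *Rerg* (-0.00031) without the 5 libraries. No sign turned when single rats were left out. Intervals were widest for genes with a mean of 5 to 20 normalized counts, with a median 95% half-width of 0.66, and the part of depth in this was not tested.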
